A study of Mus musculus with 8 samples.

Results

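Genes for costimulatory and coinhibitory molecules of dendritic cells (DCs) were followed, 9 in all: *Cd80*, *Cd86*, *Icosl*, *Cd40*, *Cd83*, *Cd274* (PD-L1), *Pdcd1lg2* (PD-L2), *Tnfsf4* (OX40L) and *Tnfsf9* (4-1BBL). They were taken as a named list and found by symbol through GENCODE release M21, and all 9 were among the 47937 gene IDs counted. RNA came from bone marrow-derived dendritic cells (BMDCs), grown from mouse bone marrow with GM-CSF and then left unstimulated or stimulated with LPS, a bacterial cell wall product that makes DCs mature. Libraries numbered 8, with 2 in each of the 4 groups formed by genotype (WT or 3xGrk-/-) and stimulation.

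The 3xGrk-/- mice carried *Vav1*-iCre, which is active in blood-forming cells, with floxed *Grk2* and *Grk6* (Grk2 fl/fl, Grk6 fl/fl) and the germline deletion Grk3-/-; *Grk5* was not targeted. WT mice were Cre-negative, all animals were adult and on a C57BL6/J background, and all groups shared the culture of 8 days in 20 ng/ml GM-CSF. Stimulated cells received 20 ng/ml LPS for 24 h. BMDCs of this kind are a mixture of DC-like and macrophage-like cells, and in such bulk RNA fewer cells of a type and less RNA per cell cannot be told apart. The labels name neither the mouse nor the culture behind a library, and the methods speak of technical replicates, so that all p-values measure the spread between these libraries, which may be technical.

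A DC that presents antigen to a T cell also shows it ligands that raise or restrain the T cell's response. CD80 and CD86 bind CD28, which activates, and CTLA-4, which inhibits; ICOSL binds ICOS; OX40L and 4-1BBL engage TNF-family receptors on activated T cells; and PD-L1 and PD-L2 bind PD-1, which dampens T cell signalling. CD40 is a receptor on the DC itself for CD40 ligand of helper T cells, and CD83 is a membrane protein of mature DCs that keeps MHC class II and CD86 at the cell surface.

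Between 4713305 and 6933358 reads were counted on genes per library. Levels are given in CPM, read counts scaled to a common depth with TMM factors, and "log2 fold change" means the difference between groups from edgeR's quasi-likelihood test, with p-values adjusted by the Benjamini-Hochberg method over all genes tested and 0.05 as the threshold. Transcripts of the targeted genes were lower in 3xGrk-/- libraries but still counted: *Grk2* was at 46.4% of the WT level without and 27.1% with LPS, *Grk6* at 43.8% and 34.5%, and *Grk3* at 78.2% and 75%. These RNA counts do not measure protein, and by immunoblot the authors reported the GRK proteins of such BMDCs as almost completely lost. T cell markers (*Cd3d*, *Cd3e*, *Cd3g*, *Trbc2*, *Lck*) summed to between 2 and 9 counts per library and B cell markers to between 1 and 6, so that the markers of both lineages were near 0. Markers of conventional DCs (6 genes, among them *Zbtb46*, *Flt3* and *Itgax*) were present in all groups, at summed levels from 871.6 to 2167 CPM, with 2 higher and 3 lower in 3xGrk-/- without LPS and 2 higher and 4 lower with LPS, beside 44.7% and 48.6% of all genes that differed. *Itgax*, which encodes CD11c, had the widest range of these in CPM, with mean levels of 944.5 in unstimulated WT, 1081 in unstimulated 3xGrk-/-, 66.9 in LPS-stimulated WT and 339.5 in LPS-stimulated 3xGrk-/-.

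In unstimulated cells, 7 of the 9 genes differed between genotypes, 4 higher and 3 lower in 3xGrk-/-, where 44.7% of all 12000 genes tested differed (22.1% higher, 22.7% lower). After LPS all 9 differed: *Cd274* and *Pdcd1lg2* were higher in 3xGrk-/- and the 7 others lower, beside 48.6% of all 11830 genes (24.7% higher, 24% lower). The median log2 fold change of the 9 was 0.23 without LPS and -0.79 with LPS, against -0.00 and -0.01 over all genes tested. LPS itself changed all 9 in WT cells, 7 up and 2 down, against a background of 60.3% (29.5% up, 30.8% down), and 7 in 3xGrk-/- cells, 5 up and 2 down, against 55.4% (28% up, 27.4% down). For 7 genes the genotype effect differed between the stimulations (interaction term of a fit of all 8 libraries), in 1 gene upward and in 6 downward, where 32.5% of 12541 genes did so (16.5% and 16%). With 2 libraries against 2, an exact two-sided permutation test of a single gene cannot give a p below 0.333, and the adjusted p-values rest on the spread shared across genes.

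**Figure D1:**
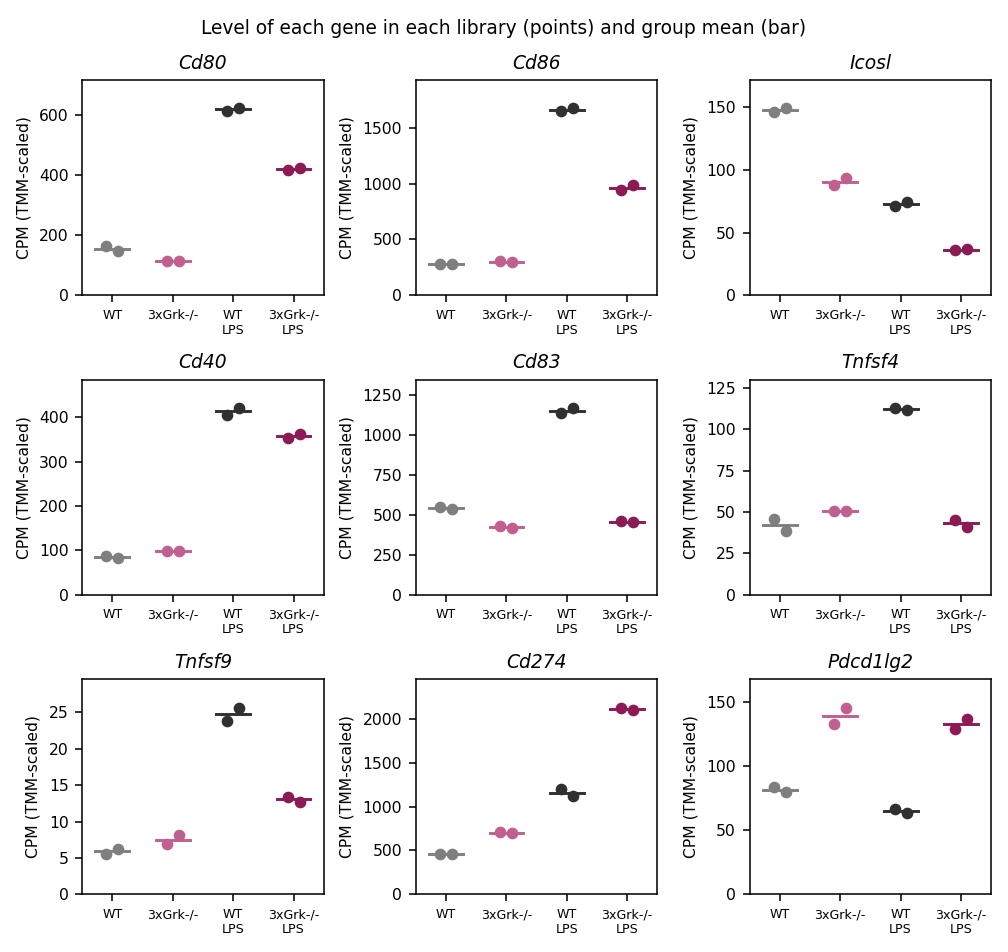
Level of each of the 9 genes in every library, in TMM-scaled CPM on a separate linear axis for each gene, with 1 point per library and the groups side by side. After LPS, the 3xGrk-/- points lie above the WT points for *Cd274* and *Pdcd1lg2* and below them for the other 7 genes.

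*Cd80* and *Cd86* lie on the same chromosome, *Cd80* at chr16:38455561-38496335 on the plus strand and *Cd86* at chr16:36603869-36666081 on the minus strand (GRCm38), 1.79 Mb apart. Both were induced by LPS in both genotypes and were lower in 3xGrk-/- after LPS. Only *Cd80* was also lower before it.

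*Cd80* had 162 and 146 CPM in unstimulated WT libraries and 114 and 112 CPM in unstimulated 3xGrk-/- libraries. After LPS it had 614 and 622 CPM in WT and 418 and 423 CPM in 3xGrk-/-. The genotypes did not overlap under either condition. Its log2 fold change between genotypes was -0.44 (SE 0.0574, adjusted p = 1.86e-13) without LPS and -0.56 (SE 0.0575, adjusted p = 5.77e-08) with LPS. LPS raised it by 2.01 in WT and by 1.90 in 3xGrk-/- on the log2 scale. The difference between these responses, -0.11, did not pass the test (adjusted p = 0.318), with a 95% interval from -0.272 to 0.0459 and values from -0.167 to -0.020 when a library was left out, the last without WT unstimulated replicate 2.

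*Cd86* stood at 280 and 285 CPM in unstimulated WT and at 306 and 297 CPM in unstimulated 3xGrk-/- libraries. After LPS, WT libraries had 1652 and 1677 CPM and 3xGrk-/- libraries 945 and 985 CPM, without overlap. Without LPS the log2 difference was 0.09 (95% interval 0.0058 to 0.179, adjusted p = 0.0763; without a filter on low counts it passed, at 0.11 and an adjusted p of 0.0451), and with LPS *Cd86* was lower in 3xGrk-/- by -0.79 (SE 0.053, adjusted p = 6.68e-11). In linear terms LPS multiplied its mean level by 5.9 in WT and by 3.20 in 3xGrk-/-. The interaction was -0.88 (SE 0.0662, adjusted p = 1.72e-11), so that the shortfall of *Cd86* was seen after stimulation and that of *Cd80* in both conditions. Per kilobase of exon, *Cd86* exceeded *Cd80* 1.74- and 1.97-fold in unstimulated WT libraries and 2.72- and 2.73-fold in LPS-stimulated WT libraries. In 3xGrk-/- the ratios were 2.72 and 2.67 without LPS and 2.29 and 2.35 with LPS.

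The genes for both ligands of PD-1 are neighbours on chromosome 19, *Cd274* at chr19:29367455-29388095 and *Pdcd1lg2* at chr19:29410919-29471161, both on the plus strand (GRCm38). Their ends are 22.8 kb apart, and 0 of the counted genes lie wholly between them. They were the only 2 of the 9 genes with higher levels in 3xGrk-/- under both conditions, a pattern seen in 12.4% of the 11350 genes tested in both tables.

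The sequences before their starts differ in CpG content, and a link of CpG content to the levels was not tested. Shown are the 250 bases upstream of each RefSeq start site on GRCm38.p6, plus strand, 5′ to 3′, with CpG dinucleotides in capitals (chr19:29367188-29367437 for *Cd274* and chr19:29410669-29410918 for *Pdcd1lg2*).
Cd274: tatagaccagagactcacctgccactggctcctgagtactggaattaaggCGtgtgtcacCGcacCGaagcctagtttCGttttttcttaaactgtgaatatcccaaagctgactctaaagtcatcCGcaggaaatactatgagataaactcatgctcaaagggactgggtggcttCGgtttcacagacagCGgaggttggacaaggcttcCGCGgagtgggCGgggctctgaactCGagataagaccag
Pdcd1lg2: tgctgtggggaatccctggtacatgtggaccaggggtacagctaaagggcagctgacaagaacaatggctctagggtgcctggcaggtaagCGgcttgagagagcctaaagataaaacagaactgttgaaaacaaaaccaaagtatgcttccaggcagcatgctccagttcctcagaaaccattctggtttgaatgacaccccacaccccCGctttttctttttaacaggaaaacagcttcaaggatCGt
The *Cd274* stretch held 11 CpG at 50.4% GC and the *Pdcd1lg2* stretch 3 at 48.4% GC, where the median of 32851 RefSeq promoters was 6 (quartiles 2 and 16). Windows were at hand for 2 further members, *Icosl* with 23 CpG and *Cd80* with 3. The *Cd80* window, at chr16:38458683-38458932, lies within the span given above for that gene.

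*Cd274* had 460 and 456 CPM in unstimulated WT and 707 and 696 CPM in unstimulated 3xGrk-/- libraries. After LPS it had 1194 and 1115 CPM in WT and 2127 and 2104 CPM in 3xGrk-/-. Every 3xGrk-/- library exceeded every WT library of the same condition. Between genotypes it differed by 0.61 on the log2 scale (SE 0.0381, adjusted p = 1.92e-56) without LPS and 0.87 (SE 0.054, adjusted p = 1.63e-11) with LPS. LPS raised *Cd274* by 1.33 in WT and by 1.59 in 3xGrk-/- on the log2 scale. Its genotype effect moved upward with LPS by 0.26 (SE 0.0634, adjusted p = 0.00194). The gene AC119228.1 overlaps *Cd274* exons on the opposite strand in the annotation and is not listed in the tables.

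*Pdcd1lg2* had 83.9 and 79.8 CPM in unstimulated WT and 133 and 146 CPM in unstimulated 3xGrk-/- libraries. After LPS the values were 66.8 and 63.3 CPM in WT and 129 and 137 CPM in 3xGrk-/-, again without overlap. Its log2 fold change was 0.77 (SE 0.0625, adjusted p = 1.85e-33) without LPS and 1.03 (SE 0.0803, adjusted p = 7.01e-10) with LPS. Unlike *Cd274* it was not induced: LPS lowered it in WT cells by -0.33 (SE 0.0789, adjusted p = 0.000688), and in 3xGrk-/- cells the change was -0.07 (95% interval -0.199 to 0.0658, adjusted p = 0.421). With library size only that change was -0.29 (adjusted p = 0.0007), while the median of all genes moved to -0.23. Its interaction term was 0.26, of the same size as that of *Cd274*, and missed the threshold (adjusted p = 0.0528), which it passed in 3 alternatives (adjusted p from 0.0195 to 0.038). Per kilobase, *Cd274* exceeded *Pdcd1lg2* 2.97- and 3.09-fold in unstimulated WT and 9.67- and 9.54-fold in LPS-stimulated WT libraries. The ratios in 3xGrk-/- libraries were 2.87 and 2.58, and after LPS 8.90 and 8.34.

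**Figure D2:**
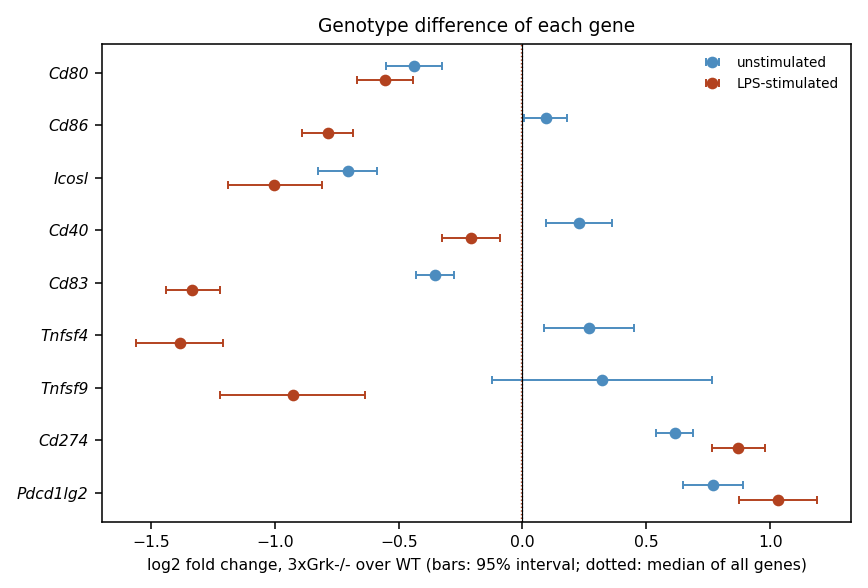
Log2 fold change of 3xGrk-/- against WT for the 9 genes, without and with LPS, with bars for the 95% interval. *Cd274* and *Pdcd1lg2* lie above 0 in both conditions, at 0.61 and 0.77 without and 0.87 and 1.03 with LPS, and the other 7 lie below 0 with LPS.

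*Icosl* (chr10:78069302-78083913, plus strand) encodes the ligand of ICOS, a receptor of follicular helper and regulatory T cells. It was lower in 3xGrk-/- in both conditions and fell with LPS in both genotypes. Unstimulated WT libraries had 146 and 149 CPM and unstimulated 3xGrk-/- libraries 88.1 and 93.4 CPM. After LPS, WT libraries had 71.5 and 74.3 CPM and 3xGrk-/- libraries 35.9 and 36.9 CPM. All 4 groups were apart from each other. The log2 fold change between genotypes was -0.71 (SE 0.0604, adjusted p = 3.26e-30) without LPS and -1.002 (SE 0.0981, adjusted p = 2.54e-08) with LPS. LPS lowered *Icosl* by -1.02 in WT and by -1.32 in 3xGrk-/-. The interaction of -0.30 passed the threshold (adjusted p = 0.0371), but not in DESeq2 (adjusted p = 0.199), without a filter on low counts, with a filter of 10 counts or when any of 7 of the 8 libraries was left out.

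*Cd40* (chr2:165055627-165072948, plus strand) and *Cd83* (chr13:43784775-43803132, plus strand) encode membrane proteins that act on the DC side of the contact. *Cd40* changed least between genotypes among the members after LPS, and *Cd83* was among those that changed most. *Cd40* had 87.1 and 82.2 CPM in unstimulated WT and 99.0 and 98.8 CPM in unstimulated 3xGrk-/- libraries. After LPS it had 405 and 421 CPM in WT and 354 and 362 CPM in 3xGrk-/-. The genotypes did not overlap, and their order turned with LPS. The genotype effect was 0.23 on the log2 scale (SE 0.0676, adjusted p = 0.00233) without LPS and -0.21 (SE 0.0592, adjusted p = 0.00621) with LPS, and the interaction was -0.43 (SE 0.0831, adjusted p = 0.000142). Higher without and lower with LPS, both past the threshold, was the pattern of 3.12% of the 11350 genes and of 2 of the 9, *Cd40* and *Tnfsf4*, and the reverse, that of 2.39%, was seen in 0 of the 9. The unstimulated difference did not pass in DESeq2 (adjusted p = 0.113), under scaling by library size alone (0.14, adjusted p = 0.0705) or without WT unstimulated replicate 2 (adjusted p = 0.0864), and the LPS difference did not pass without 3xGrk-/- LPS replicate 1 (adjusted p = 0.183) or 2 (adjusted p = 0.137). LPS raised *Cd40* by 2.29 in WT and by 1.86 in 3xGrk-/- on the log2 scale.

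*Cd83* had 552 and 537 CPM in unstimulated WT and 432 and 421 CPM in unstimulated 3xGrk-/- libraries. LPS-stimulated WT libraries had 1135 and 1170 CPM and LPS-stimulated 3xGrk-/- libraries 462 and 453 CPM. The WT mean rose to 2.12 times its unstimulated level, and the 3xGrk-/- level after LPS stayed below that of unstimulated WT. Between genotypes the log2 difference was -0.35 (SE 0.0394, adjusted p = 3.74e-18) without LPS and -1.33 (SE 0.0561, adjusted p = 2.52e-14) with LPS. LPS raised *Cd83* by 1.08 in WT (SE 0.0471, adjusted p = 1.48e-17), whereas in 3xGrk-/- the change was 0.10 (SE 0.048, adjusted p = 0.072). That small value depended on the scaling: with library size only it was -0.12 (adjusted p = 0.0471), while the median of all genes moved to -0.23. In 5 other fits (4 with a library left out and that of the 3xGrk-/- libraries alone) *Cd83* passed as higher, with values from 0.093 to 0.118 and adjusted p from 0.0199 to 0.0467. The interaction was -0.98 (SE 0.0671, adjusted p = 2.34e-12).

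*Tnfsf4* (chr1:161395409-161418410, plus strand), which sustains activated T cells through OX40, was with *Cd83* one of the 2 members with the lowest 3xGrk-/- level relative to WT after LPS, and their intervals on the log2 scale overlap. It had 45.9 and 38.9 CPM in unstimulated WT and 50.5 and 50.6 CPM in unstimulated 3xGrk-/- libraries. After LPS it had 113 and 112 CPM in WT and 45.0 and 41.3 CPM in 3xGrk-/-. The WT level rose, and the 3xGrk-/- libraries, above unstimulated WT before LPS, lay within its range after LPS. The log2 fold change with LPS was -1.38 (SE 0.0888, adjusted p = 2.97e-11). Without LPS it was 0.27 (SE 0.0923, adjusted p = 0.01), which no longer passed in DESeq2 (adjusted p = 0.233), with library size only (adjusted p = 0.0926) or without WT unstimulated replicate 2, which brought the value to 0.13 (adjusted p = 0.407). LPS raised *Tnfsf4* by 1.42 in WT (SE 0.0852, adjusted p = 2.1e-14). In 3xGrk-/- it was lower after LPS, by -0.23 (SE 0.0954, adjusted p = 0.0419), a call that was lost in DESeq2 (adjusted p = 0.175) and when any of 6 of the 8 libraries was left out, with the highest adjusted p, 0.292, without 3xGrk-/- LPS replicate 2. The interaction, -1.65 (SE 0.128, adjusted p = 3.28e-11), was the largest estimate in size of the 9, with a 95% interval that overlaps that of *Tnfsf9*.

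*Tnfsf9* (chr17:57105325-57107757, plus strand), the 4-1BB ligand, was the member with the fewest counts, between 29 and 166 per library. It had 5.53 and 6.29 CPM in unstimulated WT and 6.87 and 8.15 CPM in unstimulated 3xGrk-/- libraries. After LPS it had 23.7 and 25.6 CPM in WT and 13.4 and 12.6 CPM in 3xGrk-/-. The log2 difference without LPS was 0.32 (95% interval -0.124 to 0.765, adjusted p = 0.255), and with LPS *Tnfsf9* was lower by -0.93 (SE 0.148, adjusted p = 2.29e-05). LPS raised it by 2.05 in WT and by 0.80 in 3xGrk-/- (adjusted p = 0.000512), and the interaction was -1.25 (SE 0.26, adjusted p = 0.000365). Its exons overlap those of *Gm11110* on the opposite strand, which had 208 counts over all libraries, and the strand setting of the counting is not given in the sources used here.

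**Figure D3:**
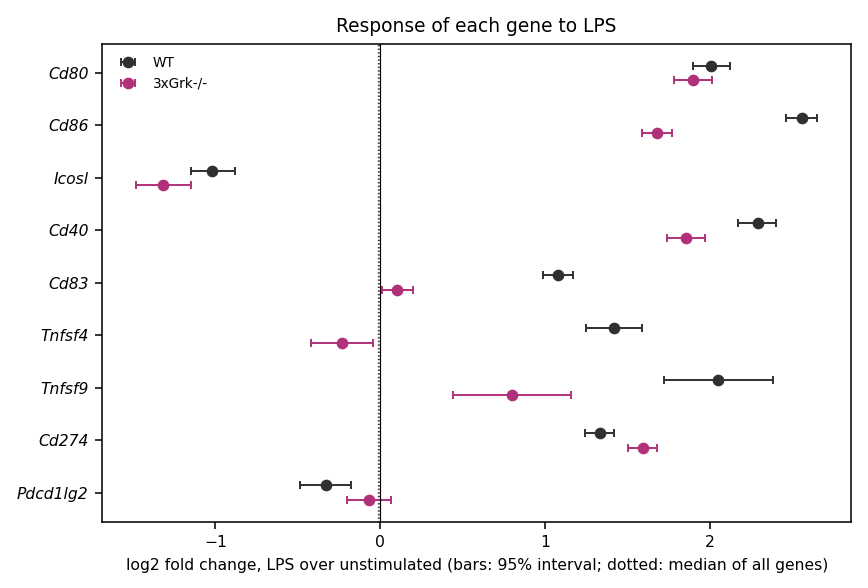
Log2 fold change with LPS against unstimulated for the 9 genes, in WT and in 3xGrk-/- cells, with bars for the 95% interval. *Tnfsf4* and *Cd83* rose in WT, by 1.42 and 1.08, and lay at -0.23 and 0.10 in 3xGrk-/-, while *Cd80* rose by 2.01 and 1.90.

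Set against the WT level after LPS, the mean of 3xGrk-/- libraries was 38.4% for *Tnfsf4*, 39.7% for *Cd83*, 49.9% for *Icosl*, 52.8% for *Tnfsf9*, 58.0% for *Cd86*, 68.1% for *Cd80* and 86.6% for *Cd40*. It was 183% for *Cd274* and 204% for *Pdcd1lg2*. In CPM gained with LPS, *Cd86* added 1380 in WT and 664 in 3xGrk-/-, and *Cd83* 608 and 31.6. *Cd274* added 697 in WT and 1410 in 3xGrk-/-.

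The order of the 9 levels, compared per kilobase of exon, differed between the groups. In unstimulated WT cells *Cd83* was first with 211.8 CPM per kb, followed by *Cd274* with 126.5 and *Cd86* with 77.1. *Pdcd1lg2* and *Cd80* (41.7 and 41.6) overlapped between libraries, as did *Cd40* and *Tnfsf4* (24.9 and 23.0), *Icosl* at 31.9 lay between these pairs, and *Tnfsf9* was last with 4.58. In unstimulated 3xGrk-/- cells *Cd274* was first with 193.6, ahead of *Cd83* with 165.7, and *Icosl* was in the eighth place with 19.6. After LPS, *Cd86* with 454.7 and *Cd83* with 448.1 overlapped at the top in WT, and *Cd274* came next with 318.8. In LPS-stimulated 3xGrk-/- cells *Cd274* led with 584.0, ahead of *Cd86* with 263.6 and *Cd83* with 178.0, and *Icosl* was last with 7.88. *Cd274* thus exceeded *Cd86* 2.27- and 2.16-fold per kilobase in the 2 LPS-stimulated 3xGrk-/- libraries, where in WT it stood at 0.73 and 0.672 of *Cd86*. With the longest transcript as the length, these ratios were 1.58 and 1.5 in 3xGrk-/- and 0.506 and 0.466 in WT. The places of *Icosl* depended on the length used. With the longest transcript it was in the fourth place in unstimulated WT (52.5 CPM per kb, above *Cd80* at 48.5 and *Pdcd1lg2* at 47.3) and in the seventh in unstimulated 3xGrk-/- (32.2, above *Tnfsf4* at 27.4). With that length, *Icosl* at 12.9 CPM per kb lay above *Tnfsf9* at 10.1 in LPS-stimulated 3xGrk-/-, and *Cd86* at 655.8 above *Cd83* at 465.5 in LPS-stimulated WT cells.

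The PD-1 ligand genes made up 28.7% and 29.0% of the summed per-kilobase level of the 9 in unstimulated WT libraries, and 42% and 42.7% in unstimulated 3xGrk-/- libraries. After LPS their share was 22.2% and 20.7% in WT and 48.4% and 48.0% in 3xGrk-/-. LPS thus went with a smaller share in WT and a larger one in 3xGrk-/-, also with the longest transcript as the length (group values 26.3% and 39.2% without and 18.6% and 43.3% with LPS). The share of *Cd80* and *Cd86* together was 37.7% and 38.1% in LPS-stimulated WT and 27.5% and 28.3% in LPS-stimulated 3xGrk-/- libraries. *Cd40* and *Cd83* together held 34.2% and 35.2% in the former and 21% and 20.8% in the latter. Of all counts of a library, the 9 genes took 0.507% and 0.503% in LPS-stimulated WT and 0.412% and 0.406% in LPS-stimulated 3xGrk-/-, and between 0.197% and 0.203% without LPS.

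**Figure D4:**
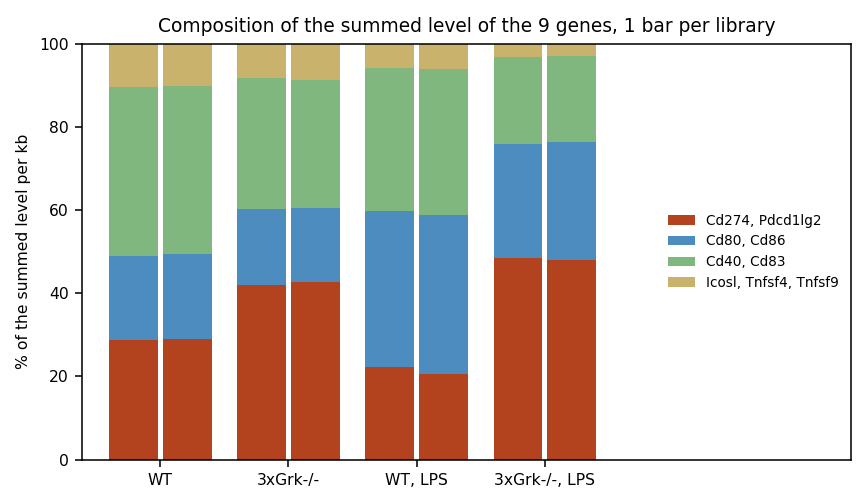
Share of each role group in the summed level of the 9 genes, in percent of CPM per kilobase of exon, for each of the 8 libraries. The PD-1 ligand share is 20.7% to 22.2% in LPS-stimulated WT and 48.0% to 48.4% in LPS-stimulated 3xGrk-/- libraries.

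Markers of other cell types moved with the genotype beside these values. The 6 macrophage markers (*Adgre1*, *Csf1r*, *Mertk*, *Fcgr1*, *Cd68*, *Cd14*) summed to 656 to 686 CPM in unstimulated WT, 1365 to 1425 in unstimulated 3xGrk-/-, 377 to 381 in LPS-stimulated WT and 2666 to 2723 in LPS-stimulated 3xGrk-/- libraries, with 5 of 6 higher and 1 lower in 3xGrk-/- without LPS and 6 of 6 higher with LPS. Of all genes tested, 22.1% were higher and 22.7% lower without LPS, and 24.7% and 24% with LPS. The 7 mature DC genes (*Ccr7*, *Fscn1*, *Ccl17*, *Ccl22*, *Il12b*, *Socs2*, *Il4i1*) summed to 35930 to 37660 CPM in LPS-stimulated WT and 19380 to 19640 in LPS-stimulated 3xGrk-/-, with 6 lower and 1 higher, whereas without LPS the sums were 12280 to 12310 and 16800 to 16900, with 4 higher and 2 lower. *Ccl22* alone went from a mean of 6009 to 10720 CPM there, while *Ccl17* (-1.35) and *Il12b* (-0.33) were lower on the log2 scale. The 7 neutrophil markers summed to 611 to 641, 431 to 436, 258 to 300 and 136 to 154 CPM in the order given for the macrophage markers, and 5 of them were lower in 3xGrk-/- in each condition. The part of these cells in the levels of the 9 genes was not tested.

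Of 21 other genes for molecules that T cells meet on DCs, 17 were tested without LPS, of which 7 were higher and 5 lower in 3xGrk-/- (median log2 fold change 0.05), and 18 with LPS, of which 7 were higher and 8 lower (median 0.04). Of all genes tested, 44.7% differed without and 48.6% with LPS. *Tnfsf15* (TL1A), a TNF family member that costimulates T cells through DR3, had 1308 and 1301 counts in LPS-stimulated WT and 103 and 104 counts in LPS-stimulated 3xGrk-/- libraries. Its log2 fold change between genotypes was -3.62 (SE 0.107, adjusted p = 6.07e-17) with LPS. *Cd70*, the ligand of CD27, had 140 and 180 counts in LPS-stimulated WT and 29 in both LPS-stimulated 3xGrk-/- libraries, and differed by -2.42 on the log2 scale (SE 0.183, adjusted p = 4.14e-10), against -0.11 (adjusted p = 0.812) without LPS. Among those higher in 3xGrk-/-, *Tnfsf14* (LIGHT), a ligand of HVEM, differed by 1.99 without (adjusted p = 3.98e-16) and by 1.52 with LPS (adjusted p = 0.000159). *Cd276* (B7-H3) was at the counting floor in WT, with 2 and 2 counts without LPS and 0 and 1 with LPS, against 30 and 19, and 12 and 13, in 3xGrk-/-.

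Of 4 genes that set how long these ligands stay at the surface, 2 were higher and 1 lower in 3xGrk-/- in each condition, where 44.7% of all genes differed without and 48.6% with LPS. The genes were not the same: *March8* was lower without LPS, by -0.31, and higher with LPS, by 0.31, though neither passed in DESeq2 (adjusted p = 0.0677 and 0.0932) and the latter also not under scaling by library size alone or when any of 3 of the 4 libraries was left out, and *Cmtm6* went the other way. MARCH1 is a ubiquitin ligase that removes CD86 and MHC class II from the surface of DCs. *March1* had 384 and 615 counts in unstimulated WT, 722 and 606 in unstimulated 3xGrk-/-, 81 and 85 in LPS-stimulated WT, and 461 and 538 in LPS-stimulated 3xGrk-/- libraries. It fell with LPS by -2.53 in WT and by -0.32 in 3xGrk-/- on the log2 scale, and the difference between the responses was 2.21 (SE 0.139, adjusted p = 3.76e-13). After LPS it was higher in 3xGrk-/- by 2.62 (SE 0.116, adjusted p = 5.43e-14). CMTM6 keeps PD-L1 at the surface, and *Cmtm6* was higher in 3xGrk-/- by 0.22 without LPS (adjusted p = 4.49e-07) and lower by -0.66 with LPS (SE 0.0599, adjusted p = 7.34e-09), in the direction opposite to that of *Cd274* there. Proteins were not measured in these libraries.

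Of 11 genes of CD40 and TNF receptor signalling, 7 were higher and 0 lower in unstimulated 3xGrk-/- cells (median log2 fold change 0.23), beside 22.1% of all genes higher and 22.7% lower. Of these, *Traf2* and *Traf5* did not pass in DESeq2 (adjusted p = 0.206 and 0.0835). Under scaling by library size alone, *Traf2* was also lost and *Traf1* passed as lower (-0.12, adjusted p = 0.00707), while the median of all genes moved to -0.086. Without 3xGrk-/- unstimulated replicate 1 or WT unstimulated replicate 2, *Traf2* fell from 0.229 to 0.09 and 0.17. After LPS 3 of the 11 were higher and 5 lower (median -0.04), beside 24.7% and 24% of all genes. *Nfkb2*, the precursor of the NF-kB subunit p52, was higher by 0.41 without LPS (SE 0.0396, adjusted p = 2.64e-24) and differed by -0.03 with LPS (adjusted p = 0.664). After LPS the adaptor genes *Traf2* and *Traf3* were higher, by 0.50 (adjusted p = 1.53e-05) and 0.48 (adjusted p = 1.06e-05). *Birc2* and *Traf6* were lower there, by -0.53 (adjusted p = 5.85e-07) and -0.36 (adjusted p = 0.000236).

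**Figure D5:**
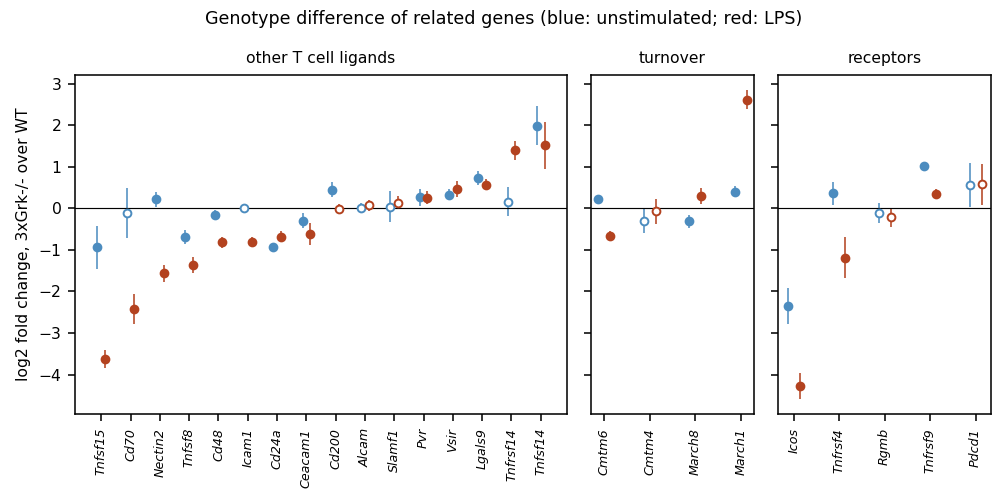
Log2 fold change of 3xGrk-/- against WT for the related genes tested in both conditions, without LPS in blue and with LPS in red, grouped by list; open circles did not pass the adjusted p threshold of 0.05, and *Cd276* and *Cd28*, at the counting floor in a WT group, are left out. *March1* lies at 0.41 and 2.62, and *Tnfsf15* at -0.94, which did not pass in DESeq2 (adjusted p = 0.115), and -3.62.

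Among 9139 genes compared over the 8 libraries, likeness was measured as the root mean square difference of centred log2 CPM, which is 0 for identical patterns. The gene most like *Cd83* was *Mtmr14* (0.0313), that most like *Cd274* was *Ell2* (0.0603), and that most like *Pdcd1lg2* was *Fxyd5* (0.0784). The nearest genes to the others were *Rtl5* for *Cd80* (0.0913), *Exo5* for *Cd86* (0.0973), *Mlec* for *Icosl* (0.0969), *Abtb2* for *Cd40* (0.0874), *St3gal2* for *Tnfsf4* (0.0879) and *Dusp5* for *Tnfsf9* (0.122). Within the 9 genes the most alike were *Cd86* and *Cd40* (0.214) and *Cd83* and *Tnfsf4* (0.224).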

How the data were processed

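RNA of 8 BMDC libraries was sequenced by the authors after TruSeq stranded mRNA preparation, and the authors deposited unnormalized read counts per gene in 1 table per stimulation. Per the methods, snakePipes 2.1.0 ran STAR 2.7.3a on mm10 (GRCm38 in the submitters' processing notes) and featureCounts 2.0.0. The annotation release and the strand setting are not given in the sources used here. Groups and replicate numbers came from the labels, and 0 columns were left without a sample. Of 47937 Ensembl IDs, 47310 were found in GENCODE M21 when version numbers were ignored and 39192 with the version, and unmatched IDs held 0.0468% of counts. Exon lengths and coordinates are those of M21.

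Genotypes were compared within each table (TMM scaling, filterByExpr, glmQLFit and glmQLFTest of edgeR 4.0.16 in R 4.3.3, with limma 3.58.1; Benjamini-Hochberg adjustment over all genes, threshold 0.05). Responses to LPS and the interaction came from 1 fit of all 8 libraries; the tables hold the same gene IDs. Log2 fold changes between genotypes and LPS responses thus come from different fits. Standard errors and 95% intervals are those of the fit. Alternatives were DESeq2 1.42.0, RLE size factors, scaling by library size alone, dropping the filter on low counts, a minimum of 10 counts in each library, a minimum size of 1 for the log2 fold change, a fixed biological coefficient of variation of 0.4, the replicate number as a block, each library left out in turn, other sets of libraries in the fit, limma voom, and the longest transcript as the length. The common coefficient of variation was 0.0306 without and 0.0573 with LPS. A group with at most 3 counts in both libraries was taken to be at the floor. On simulated counts with 200 changed genes, the test found 186 (8 further genes called falsely, 12000 tested) for genotype without LPS and 181 (2 further, 11830 tested) with LPS, and, with 12541 tested, 181 (12 further) for LPS in WT, 175 (6 further) for LPS in 3xGrk-/- and 157 (5 further) for the interaction. The simulation took its spread from these same libraries, and thus cannot tell how often the test errs between mice or cultures.

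The 9 genes and all lists were chosen with earlier results of these data known. Of the macrophage marker list, 1 gene is not reported here, and the counts and sums given cover the 6 named. The rule for naming genes took the 9, the targeted genes, the called genes of each list with the largest changes (2 in each direction per comparison) and the 3 genes most like each member (mean log2 CPM of at least 3, prior count 2). Of the list genes the text gives only a part, picked with their values known, and of the like genes the nearest. Also named are *Cmtm6*, *Traf1*, *Traf2*, *Traf3*, *Traf5*, *Traf6*, *Birc2*, *Nfkb2* and *Cd28*, chosen with their values known where the rule does not name them. Promoters are from RefSeq on GRCm38.p6.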

Additional observations from a re-analysis of the deposited data

Results flagged for a closer look

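For 7 of the 9 genes the effect of genotype differed between LPS-stimulated and unstimulated cells by the interaction term of edgeR's quasi-likelihood test. Of all 12541 genes tested, 32.5% passed this term, 16.5% upward and 16% downward. The log2 difference was -1.65 for *Tnfsf4*, -1.25 for *Tnfsf9*, -0.98 for *Cd83*, -0.88 for *Cd86*, -0.43 for *Cd40*, -0.30 for *Icosl* and 0.26 for *Cd274*. *Icosl* lost the call in several alternatives. *Cd80* (-0.11) and *Pdcd1lg2* (0.26) did not pass, the latter with an adjusted p of 0.0528.

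Among related genes, the same term was 2.21 for *March1*, 0.62 for *March8* and -0.88 for *Cmtm6*, which act on the surface stay of these ligands. Of other T cell ligands it was -2.69 for *Tnfsf15*, -2.31 for *Cd70*, -1.79 for *Nectin2*, 1.24 for *Tnfrsf14* and 0.24 for *Cd24a*, the last of which lost the call in DESeq2 (adjusted p = 0.108) and when any of 5 of the 8 libraries was left out. In CD40 and TNF receptor signalling it was 0.31 for *Traf1*, -0.36 for *Traf5*, -0.63 for *Traf6*, -0.45 for *Nfkb2* and -0.84 for *Birc2*, and *Traf5* lost the call in DESeq2 (adjusted p = 0.241), without a filter on low counts, with the filter of 10 counts and when any of 7 of the 8 libraries was left out. Of receptors for the 9 molecules it was -1.93 for *Icos*, -1.55 for *Tnfrsf4*, -0.66 for *Tnfrsf9* and 3.23 for *Cd28*. The value of *Cd28* rests on 3 and 2 counts in LPS-stimulated WT libraries, against 29 and 22 in LPS-stimulated 3xGrk-/-, and depends on the prior count of the fit. Of 18 other T cell ligands tested, 2 passed upward and 7 downward, and of 11 signalling genes 1 and 7, of which only a part is named. Of all genes tested, 16.5% passed upward and 16% downward.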

How the results depend on the processing

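Of 693 results for single members under an alternative, 602 kept their direction and side of the threshold, 80 fell below it, 10 passed it and 1 reversed. Without the fixed coefficient of variation and the requirement of a log2 fold change of 1, these were 565, 27, 10 and 1 of 603. A log2 fold change of at least 1 left 0 of the 9 genes for genotype without LPS, 4 with LPS and 2 for the interaction, where it left 1444 of 12000, 1984 of 11830 and 1375 of 12541 genes. A coefficient of 0.4 left 0, 0 and 0 members beside 448, 782 and 72 genes, with 4 members for LPS in WT and 2 for LPS in 3xGrk-/- beside 1110 and 850 genes. Leaving out each library in turn left 1 library in a group, so that effect sizes are given here. The log2 genotype effect without LPS ran from 0.18 to 0.266 for *Cd40*, 0.134 to 0.378 for *Tnfsf4* and 0.204 to 0.45 for *Tnfsf9*. With LPS it ran from -0.226 to -0.17 for *Cd40* and -1.436 to -1.308 for *Tnfsf4*. The LPS response in 3xGrk-/- ran from 0.084 to 0.125 for *Cd83* and -0.29 to -0.164 for *Tnfsf4*, and the interaction of *Icosl* from -0.339 to -0.257. With library size only, the LPS response in 3xGrk-/- of *Cd83* was -0.115, that of *Pdcd1lg2* -0.285 (adjusted p = 0.0007) and that in WT of *Cmtm6* -0.187; this scaling moved the median of all genes to -0.23 in both LPS responses and the share of higher calls from 49.0% to 31.1% in WT, from 50.5% to 30.2% in 3xGrk-/- and from 49.3% to 35.8% for genotype without LPS. DESeq2 called 3086 genes against 5369 by edgeR for genotype without LPS, and 2643 against 4070 for the interaction. Depth limits *Tnfsf9*, with 29 to 166 counts per library.

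The labels do not say whether same-numbered libraries are paired. Deviations of same-numbered libraries from their group means correlated between -0.063 and 0.074 over 9463 genes. These values cannot decide it, as the libraries of a group differed little in most genes. With the replicate block, 7 members were called for genotype without LPS and 9 with LPS, beside 5292 of 12000 and 5654 of 11830 genes. For LPS in WT, for LPS in 3xGrk-/- and for the interaction 9, 6 and 7 members were called, beside 7438, 6793 and 3884 of 12541 genes. *Tnfsf4* for LPS in 3xGrk-/- was the member lost (adjusted p = 0.0507).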

Other observations

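Transcripts of receptors for the 9 molecules were also counted in these cultures, where T cell markers summed to at most 9 counts per library. Of 8 genes for binding partners of the 9 molecules, among them the ligand gene *Cd40lg*, 6 were tested. Of these, 2 were higher and 1 lower in 3xGrk-/- without LPS and 2 higher and 2 lower with LPS, beside 44.7% and 48.6% of all genes that differed. *Icos*, the receptor of ICOSL, had 75 and 128 counts in unstimulated WT, 23 and 17 in unstimulated 3xGrk-/-, 630 and 746 in LPS-stimulated WT, and 45 and 24 in LPS-stimulated 3xGrk-/- libraries. It was lower in 3xGrk-/- in both conditions, by -2.34 without (adjusted p = 2.3e-25) and by -4.27 with LPS (adjusted p = 3.72e-15), tested as in the report with edgeR. *Tnfrsf9*, the receptor of 4-1BBL, had 1278 and 1780 counts in unstimulated WT and 3342 and 2868 in unstimulated 3xGrk-/-, and 6574 and 7849 in LPS-stimulated WT and 8452 and 9516 in LPS-stimulated 3xGrk-/-. It was higher in 3xGrk-/- by 1.01 without and by 0.36 with LPS (adjusted p = 7.14e-06), in the direction opposite to that of its ligand gene *Tnfsf9* after LPS. *Tnfrsf4*, the receptor of OX40L, was higher in unstimulated 3xGrk-/- by 0.36 (adjusted p = 0.0273), which did not pass in DESeq2 (adjusted p = 0.278) or in 4 further alternatives. After LPS it had 62 and 81 counts in LPS-stimulated WT and 19 and 42 in LPS-stimulated 3xGrk-/-, a log2 fold change of -1.19 (adjusted p = 0.000492).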
